A study of Mus musculus with 12 samples.

Results

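Aminoacyl-tRNA synthetases are the enzymes that join each amino acid to its transfer RNA. They were taken as the genes whose symbol in the array's annotation names an aminoacyl-tRNA synthetase, whatever their measured values. The rule found 70 of the 45101 probe sets, which stand for 34 of the 18193 genes with a probe set. Of these genes, 19 encode cytosolic enzymes or their subunits and 15, with symbols that end in 2, encode mitochondrial enzymes.

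A cell translates messages from its nucleus on cytosolic ribosomes, and messages from mitochondrial DNA on separate ribosomes inside the mitochondria. Each compartment needs charged transfer RNA, and most amino acids have separate nuclear genes for the cytosolic and the mitochondrial enzyme. Several cytosolic synthetases sit together in a multi-synthetase complex. Many cytosolic synthetase genes are known targets of ATF4, a transcription factor of the amino acid and stress response, while ATF6 is best known for inducing chaperones of the endoplasmic reticulum (ER). In heart muscle, mitochondria fill a large part of the cell, so both sets of enzymes serve it.

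The mice were male C57BL6 animals of about 30 weeks, with the exception that TG tamoxifen 1 is labelled 40 weeks. Transgenic (TG) mice make ATF6-MER, in which ATF6 is joined to a mutant mouse estrogen receptor so that tamoxifen can switch it on. Nontransgenic (NTG) littermates lack it, and each genotype received tamoxifen or vehicle, with 3 mice in each of the 4 groups. Total RNA from the left ventricle of each of the 12 hearts was measured on its own Affymetrix mouse whole-genome array. Neither the promoter that drives the transgene nor the dose and length of treatment is given in the labels.

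Checks of the labels set apart an NTG array. Esr1, whose probe set can read the receptor part of the fusion, had log2 levels of 16.66 to 18.23 on the 6 TG arrays and 7.15 to 10.88 on 5 NTG arrays. It was at 17.72 on the array labelled NTG tamoxifen 1. Hspa5, an ER chaperone and a known ATF6 target, was at 18.05 there, while arrays 2 and 3 of NTG tamoxifen had 15.65 and 15.49 and TG tamoxifen had 18.37 to 18.47. The main counts and medians that rest on this array are given with and without it. Second probe sets, pathway lists and marker levels are given with it only. The labels of TG vehicle 3 disagree, with vehicle in the title and tamoxifen in the treatment field, and groups follow the titles. All 7 cardiomyocyte markers were measured above the filter level. The log2 of their summed intensity, in which the brightest markers weigh most, was 20.89 to 21.07 over the 12 arrays. Array medians ran from 648 to 834 intensity units, and precision is limited by having 3 arrays per group.

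Levels below are log2 of the normalized intensity plus 16, and a change is a difference of group means on that scale with its standard error (SE). A gene rose or fell where the adjusted p of limma, a linear model fitted to 11166 genes at once, was at or under 0.05. The level of a probe set says nothing of its rank among other probe sets, so each gene is compared only with itself. The map shows every member on every array.

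**Figure D1:**
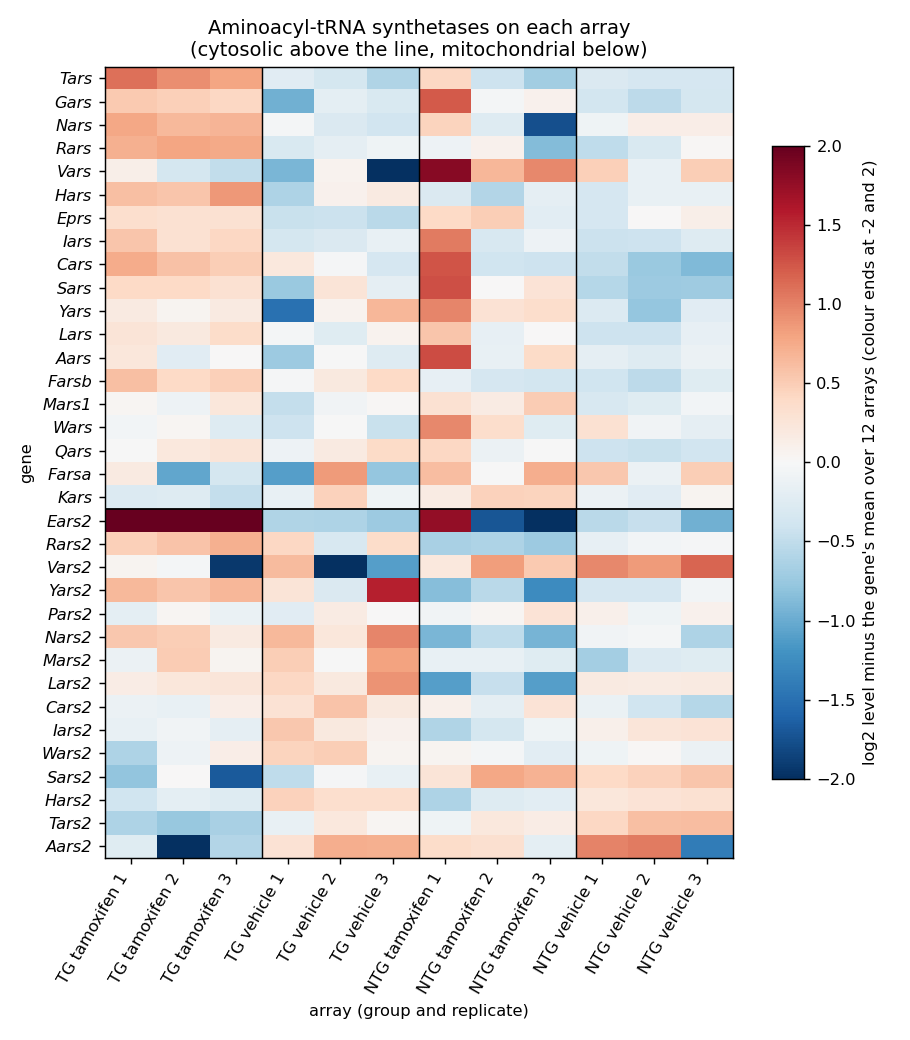
Log2 level of each synthetase gene (rows) on each of the 12 arrays (columns), minus the gene's own mean over the arrays. Most cytosolic genes are above their mean in TG tamoxifen, Ears2 is far above it there, and the array labelled NTG tamoxifen 1 is above the mean for many cytosolic genes and for Ears2.

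Tamoxifen in hearts that carry the fusion was examined in TG tamoxifen against TG vehicle. On its own, this comparison does not separate the drug's own effect from that of the fusion. Of 19 cytosolic genes, Tars, Gars, Rars, Hars and Eprs rose and 0 fell, with a median change of 0.59 over the 19 and a range from -0.41 to 1.33. Of 15 mitochondrial genes, Ears2 rose, Hars2 and Tars2 fell, and the median change was -0.30, from -1.52 to 2.81. Over all 11166 genes tested, 24.8% changed (10.4% rose and 14.4% fell), with a median change of -0.07. The cytosolic change was positive in 17 of 19 genes and the mitochondrial change in 4 of 15.

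TG tamoxifen and TG vehicle arrays were fully separate for 12 cytosolic genes, 11 of them higher in TG tamoxifen and 1 lower. They were separate for 7 mitochondrial genes, 2 higher and 5 lower. The same count over all genes was 44.2%, with 19.8% higher and 24.4% lower.

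**Figure D2:**
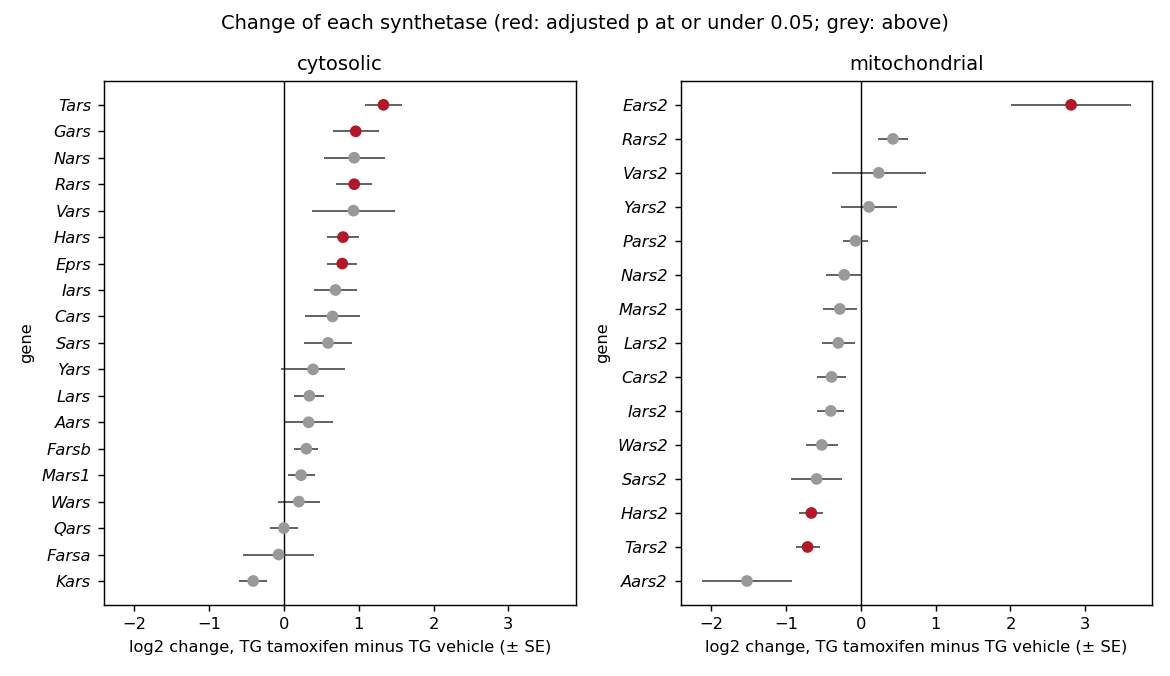
Log2 change (TG tamoxifen minus TG vehicle) of each synthetase gene with its SE, from 3 arrays per group. The cytosolic changes lie mostly to the right of 0 and the mitochondrial changes mostly to the left, with Ears2 at 2.81 and Aars2 at -1.52 as the extremes.

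Of the 7 members of the multi-synthetase complex measured, Rars and Eprs rose, and the median change of the 7 was 0.34. Rars, the arginine enzyme, was at 13.52, 13.59 and 13.57 in TG tamoxifen and at 12.50, 12.64 and 12.72 in TG vehicle. The lowest TG tamoxifen array was above every array of the other groups, since the NTG arrays lay between 11.95 and 12.90. Its change was 0.94 ± 0.24 (SE, n = 3 per group), or 1.92-fold, with an adjusted p of 0.0155. Eprs encodes a fused enzyme for glutamate and proline. It was at 13.66, 13.63 and 13.63 in TG tamoxifen and at 12.88, 12.90 and 12.78 in TG vehicle, a change of 0.78 ± 0.20 (adjusted p = 0.017). These groups did not overlap, but in NTG tamoxifen Eprs reached 13.72 and 13.81, above TG tamoxifen, on arrays 1 and 2.

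Iars, the isoleucine enzyme of the complex, was at 14.61, 14.35 and 14.46 in TG tamoxifen and at 13.70, 13.76 and 13.90 in TG vehicle. The groups did not overlap, and the change of 0.69 ± 0.29 missed the threshold (adjusted p = 0.101). Its largest level, 15.08, was on the array labelled NTG tamoxifen 1, and without that array the same change had an adjusted p of 0.00583. Lars (leucine) differed by 0.34 ± 0.20 without overlap, Mars1 (methionine) by 0.23 ± 0.18 and Qars (glutamine) by 0.00 ± 0.19, none of them past the threshold. Kars, a lysine enzyme whose gene is known to supply both the cytosol and mitochondria, had the lowest cytosolic value. It was at 13.25, 13.28 and 13.06 in TG tamoxifen and at 13.38, 14.00 and 13.45 in TG vehicle, a difference of -0.41 ± 0.19 without overlap (adjusted p = 0.134).

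Outside the complex, 3 of 12 cytosolic genes rose, and the median change was 0.62. Tars, the threonine enzyme, was at 13.43, 13.26 and 13.12 in TG tamoxifen and at 12.10, 11.97 and 11.73 in TG vehicle. All 3 TG tamoxifen arrays were above all 9 others, of which the array labelled NTG tamoxifen 1 was highest at 12.73. The change was 1.33 ± 0.25, or 2.52-fold (adjusted p = 0.00439). Gars, the glycine enzyme, also serves cytosol and mitochondria from a single gene. It was at 14.04, 13.99 and 13.93 in TG tamoxifen and at 12.56, 13.31 and 13.22 in TG vehicle, a change of 0.96 ± 0.31 (adjusted p = 0.0403). TG vehicle 1 was the low array of its group, and the array labelled NTG tamoxifen 1 exceeded TG tamoxifen at 14.74. Hars, the histidine enzyme, was at 13.29, 13.25 and 13.56 in TG tamoxifen and at 12.08, 12.78 and 12.88 in TG vehicle, a change of 0.79 ± 0.22 (adjusted p = 0.0239). No array of another group reached the TG tamoxifen levels of Hars. A second Hars probe set differed by 0.30, with an adjusted p of 0.395 over all probe sets.

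Nars, the asparagine enzyme, was at 14.39, 14.26 and 14.29 in TG tamoxifen and at 13.58, 13.33 and 13.22 in TG vehicle. These groups did not overlap, yet the change of 0.94 ± 0.41 had an adjusted p of 0.116. The SE is shared over the 4 groups, and NTG tamoxifen 3 lay far below the others of its group at 11.85, against 14.05 and 13.35. A second Nars probe set changed by 1.13 and passed the threshold over all probe sets (adjusted p = 0.0217). For the first, the adjusted p was 0.00874 without NTG tamoxifen 3 and 0.0422 without the array labelled NTG tamoxifen 1. Vars, the valine enzyme, was at 11.06, 10.60 and 10.45 in TG tamoxifen and at 10.03, 11.02 and 8.26 in TG vehicle, so the groups overlapped and the change of 0.93 ± 0.56 missed the threshold (adjusted p = 0.241). TG vehicle 3 was the low array, far below the others of its group.

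Of the remaining cytosolic genes, Cars (cysteine) differed by 0.65 ± 0.37, Sars (serine) by 0.59 ± 0.32 and Farsb, the beta subunit of the phenylalanine enzyme, by 0.30 ± 0.16. TG tamoxifen arrays of these 3 genes were all above those of TG vehicle, and the adjusted p-values were 0.216, 0.192 and 0.192. Cars passed the threshold without the array labelled NTG tamoxifen 1 (adjusted p = 0.0189). Yars (tyrosine) differed by 0.39 ± 0.43, Aars (alanine) by 0.33 ± 0.32, Wars (tryptophan) by 0.20 ± 0.28 and Farsa, the alpha subunit of the phenylalanine enzyme, by -0.07 ± 0.47. The groups overlapped for each of these 4 genes.

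**Figure D3:**
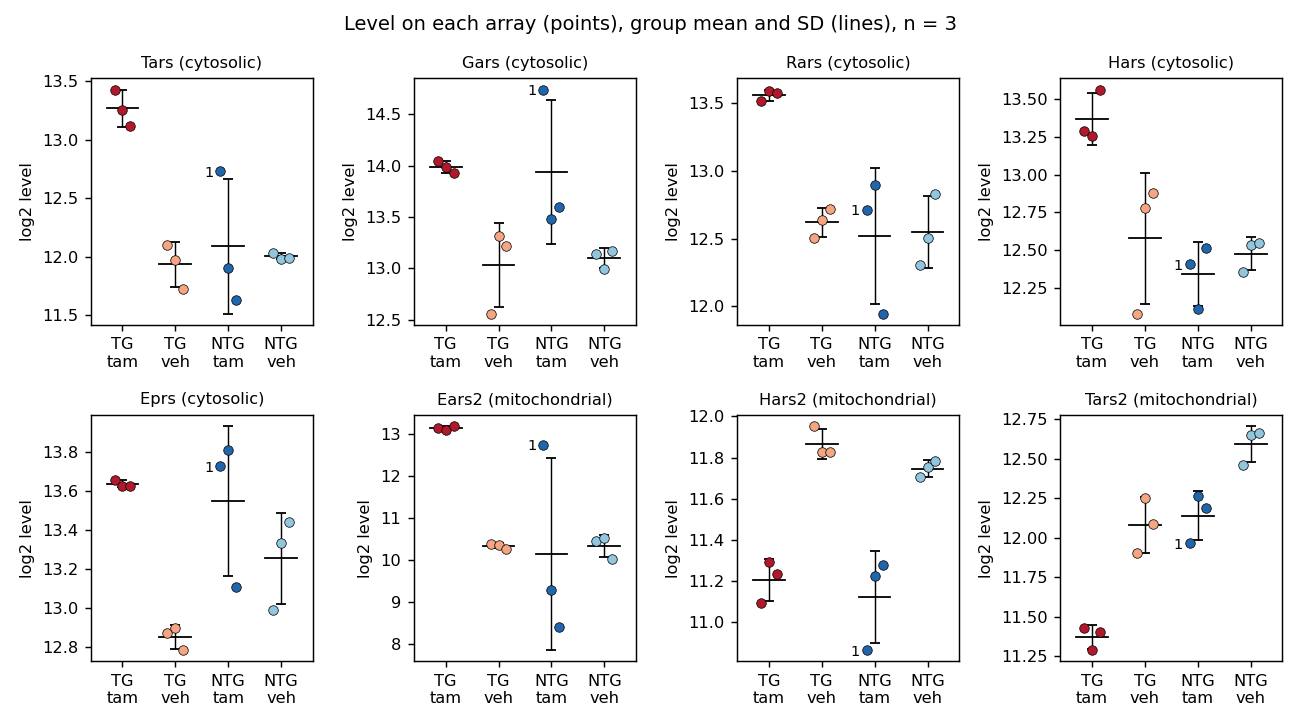
Log2 level on each array (points) with the group mean and SD (lines, n = 3) for the 8 synthetase genes that changed between TG tamoxifen and TG vehicle. The number 1 marks the array labelled NTG tamoxifen 1, which lies near the TG tamoxifen level for Ears2 (12.75) and above it for Gars (14.74).

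The promoters of these genes were searched for letters known as binding cores. The RefSeq table (GRCm38.p6) held 250 bases before to 50 after the start for 25 of the 34 members, 12 cytosolic and 13 mitochondrial. The core TGATGNAA, or TTNCATCA on the other strand, is bound by ATF4 paired with a CCAAT-enhancer binding protein. It occurred in 5 of the 12 cytosolic promoters (Aars, Gars, Iars, Tars and Yars) and in 0 of the 13 mitochondrial ones. Of all 27025 genes in the table, 4.51% had it. Of the 5 genes with the core, Gars and Tars rose in TG tamoxifen against TG vehicle, and Aars, Iars and Yars did not pass the threshold. Eprs, which rose, had a promoter sequence without the core. Rars and Hars, which also rose, had no sequence in the table. The ER stress response element, CCAAT and CCACG with 9 bases between them, was in 0 of the 25 promoters (0.137% of all genes), and TGACGTGG, a core bound by ATF6, in 0 (0.714%). With 0 matches of the others, no motif overlapped another. A match describes letters only, and binding was not measured.

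The matches in Iars and Yars, and a second match in Aars, lie after the start and are not shown. The 3 matches that lie before the start are printed because Tars and Gars are among the genes that rose. Each is on the gene's own strand, 5′ to 3′, with the core in capitals, and Aars is shown as a match in a gene that did not pass the threshold. The first base of the core lies 15 bases before the start in Tars, 30 in Gars and 112 in Aars. The start of Aars in the promoter table lies inside the annotated gene, which runs from 111027778 to 111055569, whereas the windows of Tars and Gars lie just outside theirs. The windows are at chr15:11399659-11399693 (minus strand) for Tars, chr6:55037951-55037998 (plus strand) for Gars and chr8:111033710-111033757 (plus strand) for Aars.
Tars: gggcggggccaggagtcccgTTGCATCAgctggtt
Gars: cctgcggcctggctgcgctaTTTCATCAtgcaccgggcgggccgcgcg
Aars: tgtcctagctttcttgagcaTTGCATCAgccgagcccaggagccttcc

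Among the mitochondrial enzymes, Ears2 had the largest change of the family. Ears2 joins glutamate to mitochondrial transfer RNA, including the one for glutamine, which the GatCAB complex then converts. It was at 13.14, 13.11 and 13.19 in TG tamoxifen and at 10.38, 10.36 and 10.26 in TG vehicle. It was at 10.45, 10.52 and 10.02 in NTG vehicle and at 12.75, 9.27 and 8.40 in NTG tamoxifen. Each TG tamoxifen array exceeded every other array, and the array labelled NTG tamoxifen 1 was the next highest. The change was 2.81 ± 0.80, or 7.01-fold (95% interval 1.06 to 4.55 on the log2 scale), with an adjusted p of 0.0263. With the array labelled NTG tamoxifen 1 left out, the change was again 2.81 and the adjusted p 2.61e-05.

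A second Ears2 probe set, which may match several transcripts, also rose in TG tamoxifen, by 1.69 (adjusted p = 0.00277 over all probe sets). It was at 10.08, 10.66 and 10.86 in TG tamoxifen, 8.92, 8.96 and 8.66 in TG vehicle, 10.72, 10.07 and 10.46 in NTG tamoxifen and 8.70, 8.95 and 9.20 in NTG vehicle. Unlike the first probe set, it was high on all 3 NTG tamoxifen arrays, with a change of 1.47 there (adjusted p = 0.0212 over all probe sets). The dim remaining pair of Ears2 probe sets, below the filter level, differed by 1.46 and 2.20.

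Tars2 and Hars2 fell in TG tamoxifen. Tars2, the mitochondrial threonine enzyme, was at 11.43, 11.29 and 11.40 in TG tamoxifen and at 11.90, 12.25 and 12.08 in TG vehicle, a change of -0.71 ± 0.16 (adjusted p = 0.00949). It was lowest in TG tamoxifen and highest in NTG vehicle, at 12.46 to 12.66. A second Tars2 probe set, which may match several transcripts, differed by -0.14 (adjusted p = 0.672 over all probe sets). Hars2, the mitochondrial histidine enzyme, was at 11.09, 11.29 and 11.23 in TG tamoxifen and at 11.95, 11.82 and 11.83 in TG vehicle, a change of -0.66 ± 0.16 (adjusted p = 0.0119). NTG tamoxifen, at 10.86 to 11.28, overlapped TG tamoxifen, and NTG vehicle, at 11.70 to 11.78, did not. A second Hars2 probe set differed by -0.32 in TG (adjusted p = 0.484 over all probe sets) and fell by 1.35 in NTG tamoxifen against NTG vehicle (0.0365).

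Aars2, the mitochondrial alanine enzyme, had the largest difference that did not pass the threshold. It was at 10.16, 8.39 and 9.82 in TG tamoxifen and at 10.70, 11.14 and 11.11 in TG vehicle. These groups did not overlap, and the change was -1.52 ± 0.60 (adjusted p = 0.0842). NTG vehicle 3 was low for Aars2, at 9.0 against 11.40 and 11.44, and without that array Aars2 passed the threshold in the same comparison (adjusted p = 0.0208). Sars2 (serine) differed by -0.59 ± 0.34, with TG tamoxifen arrays at 9.05 to 10.75 that overlapped TG vehicle at 10.23 to 10.71. Wars2, the tryptophan enzyme, was the only gene of the 17 with at least 2 probe sets above the filter level whose probe sets disagreed in sign, at -0.52 (adjusted p = 0.085) and 0.11. Its main probe set was at 10.38, 10.89 and 11.12 in TG tamoxifen and at 11.43, 11.48 and 11.04 in TG vehicle, with overlap.

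Iars2 (isoleucine) differed by -0.40 ± 0.18 and Cars2 (cysteine) by -0.39 ± 0.19, without overlap (adjusted p = 0.12 and 0.143). Lars2 (leucine), Mars2 (methionine), Nars2 (asparagine) and Pars2 (proline) differed by -0.30 to -0.07. Rars2 (arginine) differed by 0.43 ± 0.20 without overlap (adjusted p = 0.128). Vars2 (valine) differed by 0.24 ± 0.63 and Yars2 (tyrosine) by 0.11 ± 0.37. Vars2, with a mean level of 9.46, was the member nearest to the filter level of 9.42, and all 34 genes were above it.

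The matching enzymes of an amino acid were set side by side in 15 pairs, with Eprs in 2 of them. In TG tamoxifen against TG vehicle, the cytosolic change was above the mitochondrial change in 14 of 15 pairs, the exception being Eprs and Ears2. In 11 pairs the cytosolic change was above 0 and the mitochondrial change below 0. Tars and Tars2 passed the threshold in opposite directions, at 1.33 and -0.71, as did Hars and Hars2, at 0.79 and -0.66. Hars and Hars2 are neighbours on chromosome 18 of GRCm38.p6, Hars at 36766528 to 36783205 and Hars2 at 36783202 to 36792562, so that the annotated genes overlap by 4 bases. In NTG tamoxifen against NTG vehicle the cytosolic change was also above the mitochondrial change in 14 of 15 pairs, and in 13 without the array labelled NTG tamoxifen 1.

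**Figure D4:**
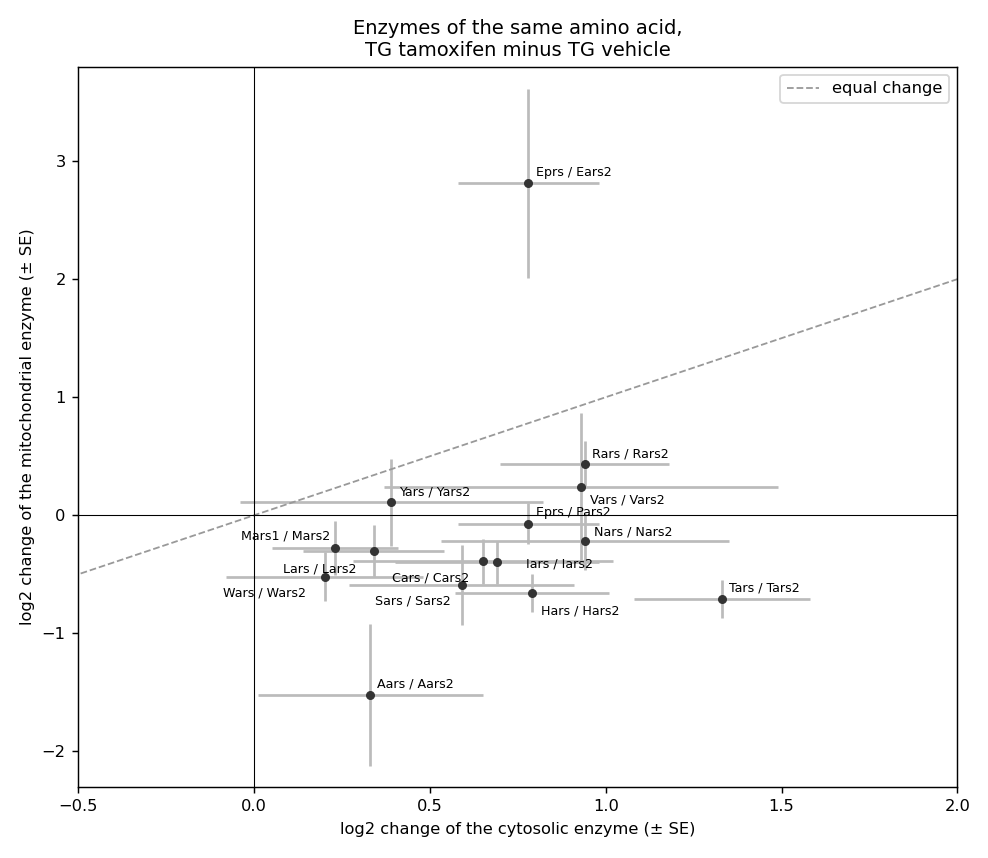
Log2 change (TG tamoxifen minus TG vehicle) of the cytosolic enzyme (horizontal axis) and the mitochondrial enzyme (vertical axis) for the same amino acid, each with its SE, for 15 pairs. Points below the dashed line have the larger change in the cytosolic enzyme, which holds for 14 pairs. Eprs and Ears2 lie above it.

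Grouped by the enzymes' structural classes, the cytosolic medians were 0.39 for 9 class I genes and 0.59 for 9 class II genes, with Eprs holding both classes. The mitochondrial medians were -0.28 for 9 class I genes and -0.62 for 6 class II genes. Tars, Gars and Hars, which rose, and Tars2 and Hars2, which fell, are all class II, while Rars and Ears2 are class I.

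The calls in TG tamoxifen against TG vehicle rested on 3 arrays a group, and several were near the threshold. Without TG tamoxifen 1 the cytosolic count was 2 (Rars and Tars) and the mitochondrial count 1 (Tars2). Limma then called 1466 of all genes, against 2773 with all arrays. Eprs (0.0559), Hars (0.0577), Hars2 (0.0524) and Ears2 (0.0698) missed the threshold there. The cytosolic count was 3, with Eprs, Rars and Tars, without TG tamoxifen 3 (1849 of all genes) or without TG vehicle 1 (2813). It rose to 8 without the array labelled NTG tamoxifen 1, as Iars, Nars and Cars passed, where 29.3% of all genes changed. Gars missed the threshold without any 1 array of TG tamoxifen, TG vehicle or NTG vehicle, with adjusted p-values from 0.0547 to 0.115. Ears2 also missed it without TG tamoxifen 2 or 3 or TG vehicle 2 or 3 (0.0619 to 0.0664), while its change stayed between 2.77 and 2.83. With TG vehicle 3 moved to TG tamoxifen to follow its treatment field, limma called 0 members and 0 of all genes in this comparison, and 4 cytosolic and 6 mitochondrial members had an unadjusted p under 0.05, against 20.4% of all genes. A further setting left out both TG vehicle 3 and TG tamoxifen 1, the array labelled 40 weeks, and kept the array labelled NTG tamoxifen 1. Limma then called 0 members and 730 genes in all. In that setting 5 cytosolic and 6 mitochondrial members had an unadjusted p under 0.05, against 28% of all genes.

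Tamoxifen in hearts without the transgene was examined in NTG tamoxifen against NTG vehicle. Lars2 and Hars2, both mitochondrial, fell, and 0 cytosolic genes passed the threshold, against 4.31% of all genes (0.654% rose and 3.65% fell). Of the 19 cytosolic genes, 9 had an unadjusted p under 0.05, all of them higher, against 9.16% of all genes higher at that level. This cytosolic count was made only with the array labelled NTG tamoxifen 1 included. Over both compartments and directions, 16 members had such a p, against 23.6% of all genes. Without the array labelled NTG tamoxifen 1, 10 members did, against 21.7% of all genes. Lars2, the mitochondrial leucine enzyme, was at 11.53, 12.17 and 11.54 in NTG tamoxifen and at 12.80, 12.79 and 12.82 in NTG vehicle. All NTG tamoxifen arrays were below all NTG vehicle arrays, and the change was -1.06 ± 0.22 (adjusted p = 0.0254). A second Lars2 probe set differed by only -0.30 (adjusted p = 0.672 over all probe sets), and the mean of the probe sets differed by -0.36 (adjusted p = 0.393). Hars2, at the levels given above, changed by -0.62 ± 0.16 without overlap (adjusted p = 0.0459). The next members were Sars at 1.19 ± 0.32 (adjusted p = 0.0566), Iars2 at -0.55 ± 0.18 (0.099), Rars2 at -0.58 ± 0.20 (0.107) and Mars1 at 0.53 ± 0.18 (0.11).

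Of the 22 other member probe sets above the filter level, 2 rose and 1 fell here when adjusted over all probe sets. Over all genes, 0.654% rose and 3.65% fell, and the share over all probe sets was not counted in any comparison. The probe sets of Ears2 and Hars2 are given above, and the third was one of Qars, the glutamine enzyme, which may match several transcripts. It was at 14.95, 14.45 and 14.71 in NTG tamoxifen and at 12.79, 12.75 and 13.08 in NTG vehicle, a change of 1.83 (adjusted p = 0.0203). The probe set that stands for Qars differed by 0.52 (0.145) and a further one by 0.44 (0.365), both also over all probe sets.

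The median change was 0.46 over the 19 cytosolic genes and -0.45 over the 15 mitochondrial genes, against -0.01 over all genes. The array labelled NTG tamoxifen 1 weighed on these values. It was the highest of its group for 13 of 19 cytosolic genes, and it exceeded both other arrays by over 1 for Cars, Gars, Iars, Sars and Ears2. Cars was at 12.91 there, against 11.27 and 11.24, and Sars was at 14.50, against 13.22 and 13.49. The median distance of the cytosolic genes from the NTG vehicle mean was 0.83 on this array, 0.31 on array 2 and 0.34 on array 3. For the mitochondrial genes it was -0.56, -0.27 and -0.40.

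**Figure D5:**
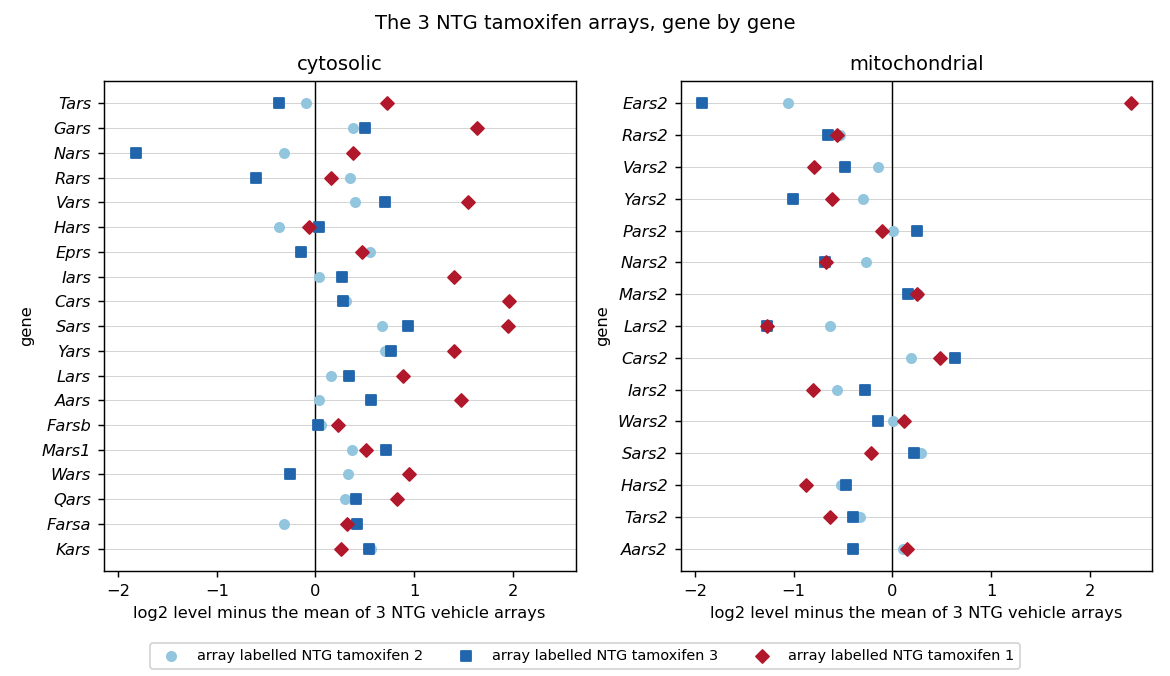
Log2 level of each synthetase gene on each of the 3 NTG tamoxifen arrays (symbols), minus the mean of the 3 NTG vehicle arrays. The array labelled NTG tamoxifen 1 lies to the right of the other arrays for most cytosolic genes and, at 12.75 against 9.27 and 8.40, for Ears2.

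Without the array labelled NTG tamoxifen 1, the cytosolic median was 0.25 and the mitochondrial median -0.37. Ears2 was then the only member that passed the threshold, at -1.49 (adjusted p = 0.0257), while 3.81% of all genes did. That value is of its main probe set. The second Ears2 probe set, described above, went the other way, with a rise of 1.47 with all arrays. Without the array labelled NTG tamoxifen 1, Lars2 (0.0519) and Hars2 (0.0823) missed the threshold. Both also missed it without NTG tamoxifen 3 or without any 1 NTG vehicle array, where 0 members were called and the adjusted p-values ran from 0.0825 to 0.149. In those settings limma called only 0 to 23 of all genes, against 481 with all arrays. The count of members was 4 without TG vehicle 1 (728 of all genes), which added Sars and Yars. It was also 4 without TG vehicle 2 (579 of all genes), which added Sars and Rars2. It was 1 (Lars2) without any 1 TG tamoxifen array (268 to 320 of all genes) or without TG vehicle 3 (386).

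The transgene without the drug was examined in TG vehicle against NTG vehicle. Of the 34 members limma called 0, against 3.63% of all genes (1.39% higher and 2.24% lower in TG), and 5 members were higher and 3 lower at an unadjusted p under 0.05, where 11.1% of all genes were higher and 12% lower. The Qars probe set described above was at 13.41, 14.50 and 14.37 in TG vehicle and was higher there than in NTG vehicle by 1.22 (adjusted p = 0.0274 over all probe sets). The nearest to the threshold were Cars2 at 0.72 ± 0.19 (adjusted p = 0.0567), Nars2 at 0.86 ± 0.24 (0.0643), Farsb at 0.58 ± 0.16 (0.07) and Mars2 at 0.83 ± 0.23 (0.0708). TG and NTG vehicle arrays were separate for all 4 of these genes, as they were for 30.8% of all genes. The count was 2 without TG vehicle 1 (Farsb and Vars2), 3 without TG vehicle 2 (Nars2, Vars and Mars2) and 2 without the array labelled NTG tamoxifen 1 (Cars and Cars2). Over all genes limma called 625, 417 and 812 in these settings, against 405 with all arrays.

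Genotype under the drug was examined in TG tamoxifen against NTG tamoxifen, which shares its TG arrays with the first comparison. Here 13 members changed, against 39.5% of all genes (19% higher and 20.6% lower). Of the cytosolic genes, Tars (1.18 ± 0.25), Nars (1.23 ± 0.41), Rars (1.04 ± 0.24), Hars (1.02 ± 0.22) and Farsb (0.77 ± 0.16) were higher in TG and Kars (-0.70 ± 0.19) was lower. Of the mitochondrial genes, Ears2 (3.00 ± 0.80), Yars2 (1.50 ± 0.37), Rars2 (1.24 ± 0.20), Nars2 (1.18 ± 0.24) and Lars2 (1.09 ± 0.22) were higher, and Sars2 (-1.39 ± 0.34) and Tars2 (-0.77 ± 0.16) were lower. The adjusted p-values ran from 8e-04 for Rars2 to 0.0334 for Nars. The median change was 0.06 over the cytosolic and 0.08 over the mitochondrial genes, against -0.06 over all genes. Without the array labelled NTG tamoxifen 1 these medians were 0.22, -0.05 and -0.05, so that the mitochondrial sign turned, and Ears2 was higher by 4.31 ± 0.25 (adjusted p = 5.38e-06). Median centring gave medians of 0.34, 0.16 and 0.06. The second Ears2 probe set differed by 0.12 here, with an adjusted p of 0.737 over all probe sets. Of the 22 other probe sets, 5 were higher and 0 lower over all probe sets, against 19% and 20.6% of all genes. They were those of Farsb, Nars, Yars2 and Hars2. That of Hars2 was higher by 1.32 (0.00586), while its main probe set differed by 0.08. Second probe sets of Hars (0.54, 0.0861), Lars2 (0.83, 0.0965) and Tars2 (-0.30, 0.281) did not pass.

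Several of these mitochondrial differences came with low levels in NTG tamoxifen. Yars2 was at 10.87, 11.18 and 10.47 in NTG tamoxifen, 11.38 to 11.68 in NTG vehicle, 12.28 to 12.39 in TG tamoxifen and 11.43 to 13.29 in TG vehicle. Nars2 was at 10.39, 10.79 and 10.38 in NTG tamoxifen and 11.48 to 11.84 in TG tamoxifen. The next members by adjusted p were Vars at -1.40 ± 0.56 (0.0663) and Aars2 at -1.10 ± 0.60 (0.165). Leaving out the array labelled NTG tamoxifen 1, Iars and Cars joined the higher genes and 15 members changed, against 42.9% of all genes. Nars missed the threshold without any 1 TG tamoxifen array (0.0688 to 0.0835) or without NTG tamoxifen 3 (0.61, 0.0593), and Kars without TG tamoxifen 3 (0.0517). With TG vehicle 3 moved to TG tamoxifen, Tars (0.137), Tars2 (0.0575), Ears2 (0.0885) and Nars (0.126) missed it. Kars also missed it under median centring (-0.44, 0.102), and Ears2 with only the groups compared (0.0562). Nars missed it there too (0.103), as it did without the filter (0.0788) and with TG vehicle 3 and TG tamoxifen 1 both left out (0.103).

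Whether the tamoxifen effect differed by genotype was tested as an interaction, the effect in TG minus that in NTG. The median interaction was -0.12 over the cytosolic and -0.04 over the mitochondrial genes, against -0.07 over all genes. Without the array labelled NTG tamoxifen 1 these medians were 0.26, -0.17 and -0.07. Tars (1.25 ± 0.35, adjusted p = 0.0369) and Rars2 (1.01 ± 0.28, adjusted p = 0.034) passed the threshold, against 14.3% of all genes (7.51% higher and 6.76% lower). The tamoxifen effect on Tars was 1.33 in TG and 0.08 in NTG. Rars2, the mitochondrial arginine enzyme, was at 12.86, 12.95 and 13.10 in TG tamoxifen and at 12.80, 12.07 and 12.75 in TG vehicle. It was at 11.74, 11.77 and 11.65 in NTG tamoxifen and at 12.23, 12.33 and 12.37 in NTG vehicle, so tamoxifen arrays were above vehicle arrays in TG and below them in NTG. Its separate changes, 0.43 and -0.58, did not pass the threshold. Of the 22 other probe sets, only that of Qars described above passed over all probe sets, at -1.54 (adjusted p = 0.0291), where 14.3% of all genes passed. The next members were Kars at -0.87 ± 0.27 (adjusted p = 0.053), Cars2 at -0.83 ± 0.26 (0.0571), Hars at 0.92 ± 0.31 (0.0655) and Rars at 0.97 ± 0.33 (0.0703).

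For Ears2 the interaction was 3.00 ± 1.13 (adjusted p = 0.0914) with all arrays. Without the array labelled NTG tamoxifen 1 it was 4.30 (adjusted p = 0.000118), and Nars (2.01), Tars (1.57) and Rars2 (1.02) were also higher and Kars (-0.96) lower, against 22.8% of all genes. These Ears2 values are of its main probe set. The second Ears2 probe set had an interaction of only 0.22 with all arrays (adjusted p = 0.707 over all probe sets). The count was 4 without NTG tamoxifen 2 (Rars, Lars2, Rars2 and Cars2) or TG vehicle 1 (Kars, Rars2, Tars and Yars). Over all genes limma called 1394 and 2256 there, against 1594 with all arrays. The count was 1 without TG vehicle 2 (Rars2, with 848 of all genes), and Tars also missed the threshold without TG vehicle 3 (0.0761). It was 0 without any 1 TG tamoxifen array, NTG tamoxifen 3 or any 1 NTG vehicle array. In those settings the adjusted p-values of Tars and Rars2 ran from 0.0572 to 0.0866, and limma called 639 to 961 of all genes.

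Other genes around the synthetases were counted in TG tamoxifen against TG vehicle from lists of the pathway. Over all genes, 10.4% rose and 14.4% fell in this comparison. Of 12 tested genes for complex scaffolds and tRNA handling, 3 rose and 3 fell. Dtd1, a deacylase that removes D-amino acids from tRNA, fell by 0.89, and Tarsl2, a threonyl-tRNA synthetase paralog outside the symbol rule, fell by 1.45. Aarsd1, an editing protein for alanyl-tRNA, fell by 1.01, and Eef1e1, a scaffold of the multi-synthetase complex, rose by 1.04. Of 16 elongation and initiation factors, 2 rose and 3 fell. Eif5 rose by 1.23 and Eif2s2, a subunit of initiation factor eIF2, by 1.23, while Eef1a2, a form of the elongation factor eEF1A found in muscle and neurons, fell by 1.50 and Eif2b4, a subunit of the eIF2 exchange factor, by 1.03.

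Of 16 genes for mitochondrial translation, 1 rose and 3 fell, against 10.4% and 14.4% of all genes, and the median change was -0.28. Tufm, the mitochondrial elongation factor that delivers charged tRNA, fell by 1.18, and Gatc, a subunit of the GatCAB complex named above, fell by 0.71. Mrrf, the ribosome recycling factor, fell by 0.51, and Pus1, a tRNA pseudouridine synthase, rose by 0.72. Of 22 genes for stress kinases and the ATF4 pathway, 10 rose and 0 fell, with a median change of 0.95. Mthfd2 rose by 4.34, Psat1 by 4.02, Ddit3 by 2.08 and Eif2ak3, which encodes the kinase PERK, by 1.96. In NTG tamoxifen against NTG vehicle 0 of the 22 passed the threshold, against 4.31% of all genes. That count includes the array labelled NTG tamoxifen 1, and none was made without it. Psat1 was at 13.57 on it, against 9.68 and 9.59 on arrays 2 and 3, and Mthfd2 at 12.36, against 10.09 and 9.57. Nupr1, Cebpg and Ppp1r15b were lowest of their group on it. Atf4, named because ATF4 with a partner can bind the promoter core above, rose by 2.07 ± 0.42 (adjusted p = 0.00655). Whether ATF4 acted on the synthetase genes was not tested. Of 8 tested amino acid transporters 0 passed the threshold, and Slc38a2 came nearest at 0.59 ± 0.20 (adjusted p = 0.0506).

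Markers of cell types and RNA quality moved between the same groups. In these bulk samples, fewer cells of a type and less RNA per cell cannot be told apart. Sums below are the log2 of summed intensities. The sum of 6 mitochondrial content genes was 19.72 to 19.75 on TG tamoxifen arrays and 20.01 to 20.12 on TG vehicle arrays. It was 19.75 to 19.90 on NTG arrays with tamoxifen and 20.03 to 20.05 with vehicle. In TG tamoxifen against TG vehicle, 2 of these 6 genes fell, where 10.4% of all genes rose and 14.4% fell. The 7 cardiomyocyte markers summed to 20.89 to 20.93 in TG tamoxifen and 21.02 to 21.05 in TG vehicle, with 1 of 7 lower. The 6 endothelial markers summed to 14.81 to 14.95 and 15.20 to 15.57, with 4 of 6 lower.

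The 7 macrophage and myeloid markers summed to 16.48 to 17.10 in TG tamoxifen and 15.65 to 16.65 in TG vehicle, and 1 of the 6 tested rose. The dividing-cell markers summed to 12.29 to 12.84 and 10.58 to 11.03, and both tested markers rose. Of 6 fibroblast markers, 1 rose and 1 fell, and 0 of 3 tested smooth muscle markers passed the threshold. Over all genes, 10.4% rose and 14.4% fell. The 3' to 5' ratio of the actin control, a sign of RNA quality, was 1.75 to 1.88 on TG tamoxifen arrays and 1.32 to 1.68 on TG vehicle arrays. On NTG arrays it was 1.78 to 1.97 with tamoxifen and 2.12 to 2.43 with vehicle. The part of these shifts in the synthetase results was not tested.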

How the data were processed

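Left ventricle RNA of 12 mice in 4 groups was measured on Affymetrix arrays. The authors deposited linear intensity values, 1 per probe set and array, and the file shows the same 2% trimmed mean of 2500.02 on every array. No source used here names the summarisation software. The members and lists were chosen with earlier results of these data known.

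From these values, log2(intensity + 16) was computed and, because array medians spanned 0.356 (over the 0.2 allowed), quantile normalized without the 64 control probe sets. Platform annotation gave 34945 probe sets 1 symbol, 932 several and 9160 none, and only those with 1 were named. The probe set with the highest mean stood for a gene, and a gene was kept, as 11166 were, if that mean reached the 50th percentile over probe sets (intensity 670.3). Of the 70 member probe sets, 56 were above that level. The probe sets that stand for Aars, Eprs, Farsb, Iars, Qars, Wars and Yars2 may match several transcripts.

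The tests used limma 3.58.1 under R 4.3.3 (two-sided, 4 group means, 8 residual and 3.55 prior degrees of freedom), with p-values adjusted by Benjamini-Hochberg over all genes tested in each of 5 comparisons, with a threshold of 0.05. Second probe sets were adjusted over all probe sets. The fit was tested on simulated data. The offset makes changes of dim genes too small. Every member may be named, and of each other list at most 4 genes with the smallest adjusted p, with Atf4 added after its values were seen. Replicate numbers did not pair arrays: 18 correlations of deviations between groups ran from -0.087 to 0.092, and 0 were over 0.1. Alternatives covered scaling, offset, filter, probe set, groups fitted, variance trend, conflicting labels, replicate block and each array left out.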

Additional observations from a re-analysis of the deposited data

Results flagged for a closer look

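Tars and Rars2 had tamoxifen effects that differed between TG and NTG hearts by the interaction test. For Tars the effect in TG minus that in NTG was 1.25 (adjusted p = 0.0369, range over the alternatives 0.00221 to 0.499). For Rars2 it was 1.01 (adjusted p = 0.034, range 0.0117 to 0.15). Without the array labelled NTG tamoxifen 1 the values were 1.57 (adjusted p = 0.00221) and 1.02 (adjusted p = 0.0315).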

How the results depend on the processing

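Over 24 alternative settings, 1069 of 1206 values of single members kept their direction and side of the threshold, 107 lost the threshold, 11 gained it and 19 changed sign. Moving TG vehicle 3 to the tamoxifen group, or leaving both arrays of conflicting labels out, gave counts of 0 for the cytosolic and the mitochondrial genes in TG tamoxifen against TG vehicle, for NTG tamoxifen against NTG vehicle and for the interaction. The regrouping turned Lars2 to 0.07, Mars2 to 0.07, Nars2 to 0.11 and Vars to -0.43, and leaving both out turned Mars2 to 0.04, Vars to 0 and Vars2 to -0.23. Without the filter the cytosolic count was 2 and those of NTG and the interaction 0, where limma called 4 and 355 of all genes. With the mean of all probe sets of a gene, the mitochondrial count was 0 (of 11 genes left) and that of NTG was 1. With only the groups compared, NTG had 0, and 21 of all genes. The deposited scaling gave 1 in NTG and 5 for the interaction, and median centring gave 5 and 6, with 1 in TG vehicle against NTG vehicle. The 75th percentile filter (25 members left) gave 4 in TG vehicle against NTG vehicle and 6 for the interaction, and the intensity trend gave 3 and 4. Leaving out 1 array in turn gave 2 to 8 cytosolic and 1 to 4 mitochondrial genes, 0 to 4 in NTG, 0 to 3 in TG vehicle against NTG vehicle and 0 to 5 for the interaction. TG tamoxifen against NTG tamoxifen gave 10 to 15 over all settings, within 1.5 times the 13 reported, though single members were lost. Leaving out 1 array in turn changed the sign of some members, with ranges of -0.45 to 0.53 for Farsa, -0.18 to 0.02 for Pars2, -0.12 to 0.12 for Qars, -0.40 to 0.99 for Vars2, -0.23 to 0.85 for Yars and -0.29 to 0.63 for Yars2. The cause of these changes was not tested.

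With the replicate number as a block, NTG tamoxifen against NTG vehicle had 0 members and the interaction 1 (Tars), and the cytosolic count of TG tamoxifen against TG vehicle was 4, Gars being lost at an adjusted p of 0.0632. These arrays share only a number. Median centring moved the median of all genes from -0.07 to 0.03 in TG, from -0.01 to -0.16 in NTG and from -0.07 to 0.18 for the interaction. All genes called then split into 1542 higher and 1167 lower in TG (1166 and 1607 as reported), 47 and 924 in NTG (73 and 408), 2555 and 1707 between the genotypes under tamoxifen (2116 and 2295), 75 and 471 under vehicle (155 and 250) and 1518 and 335 for the interaction (839 and 755).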
